A study of Mus musculus with 2 samples.

Results

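The pentose phosphate and NADPH enzymes described here are 10 genes, G6pdx, Pgls, Pgd, Rpia, Tkt, Taldo1, Me1, Idh1, Idh2 and Nadk, taken by name. All 10 were among the 14197 genes of the deposited table. The data came from 4T1 cells, a murine mammary carcinoma line with a wild-type genotype per the labels. One culture was treated with 20 μM astragalin (AS), a plant flavonoid, for 24 h and the other, the control, with the vehicle. Each culture gave 1 library of stranded mRNA sequencing, so no difference between the libraries has a replicate check and no test of the conditions is possible. The intervals given are 95% intervals that cover counting error only, and AS cannot be told apart from any other difference between the dishes.

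The pentose phosphate pathway branches from glycolysis at glucose phosphate. Its oxidative steps reduce NADP to NADPH and yield ribulose phosphate, and its non-oxidative steps exchange sugar phosphates between ribose, the backbone of nucleotides, and glycolysis. NADPH drives the synthesis of fatty acids and sterols and keeps glutathione and thioredoxin reduced. Malic enzyme and the NADP-dependent isocitrate dehydrogenases are further sources of NADPH, and NAD kinase makes NADP itself. Several of these genes, among them G6pdx, Pgd, Tkt, Taldo1 and Me1, are known targets of NRF2, the transcription factor of the oxidative stress response.

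The deposited values are RPKM, the reads per kilobase of exon per 1000000 reads of the library. They are whole multiples of the value of 1 read, and the read totals recovered from them were 44820055 (AS) and 50723555 (vehicle). All 8 epithelial markers were present in both libraries, at 1809 RPKM in sum in AS-treated and 2324 RPKM in control cells. Of the markers of other cell types, 3 of 6 leukocyte, 0 of 4 endothelial and 3 of 5 fibroblast genes were in the table. The leukocyte markers summed to 24.4 RPKM with AS and 28.7 RPKM with the vehicle, nearly all of it from Cd68, a lysosomal gene of macrophages, at 24.0 and 28.1 RPKM. Ptprc, the defining leukocyte gene, was at 0.116 RPKM with AS and 0.114 with the vehicle, and Col1a1, a fibroblast collagen, at 0.896 and 0.711. Pdgfra, a growth factor receptor of fibroblasts, was the highest of the fibroblast genes, at 4.24 and 4.16 RPKM.

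The promoters of 3 of these genes are shown because they hold the letters TGACNNNGC, the core of the antioxidant response element that NRF2 binds with a small MAF protein. The sequences are from RefSeq (GRCm38.p6), which held 14 promoters of the 10 genes, each from 250 bases before to 50 bases after a start of transcription. They are printed in the direction of the gene, and capitals mark the match on either strand.
Me1, upstream start, chr9:86695865-86696164, minus strand: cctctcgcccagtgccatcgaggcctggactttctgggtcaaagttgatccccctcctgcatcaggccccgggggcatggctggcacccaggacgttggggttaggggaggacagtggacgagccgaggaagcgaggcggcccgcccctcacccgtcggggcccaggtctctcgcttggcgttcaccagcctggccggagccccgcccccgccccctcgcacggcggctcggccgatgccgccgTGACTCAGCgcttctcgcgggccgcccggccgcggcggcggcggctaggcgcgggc
G6pdx, chrX:74428831-74429130, minus strand: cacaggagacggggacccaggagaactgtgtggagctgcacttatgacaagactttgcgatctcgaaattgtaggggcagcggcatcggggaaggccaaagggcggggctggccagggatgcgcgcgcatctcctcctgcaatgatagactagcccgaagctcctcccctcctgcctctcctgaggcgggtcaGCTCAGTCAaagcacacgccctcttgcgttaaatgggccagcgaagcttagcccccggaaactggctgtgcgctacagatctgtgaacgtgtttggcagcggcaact
Pgd, upstream start, chr4:149166656-149166955, minus strand: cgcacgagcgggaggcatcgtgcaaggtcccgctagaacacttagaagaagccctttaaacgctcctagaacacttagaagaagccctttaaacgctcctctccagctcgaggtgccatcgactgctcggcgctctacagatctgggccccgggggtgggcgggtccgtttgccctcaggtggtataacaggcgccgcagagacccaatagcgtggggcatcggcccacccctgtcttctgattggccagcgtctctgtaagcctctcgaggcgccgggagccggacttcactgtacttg
Pgd, downstream start, chr4:149166033-149166332, minus strand: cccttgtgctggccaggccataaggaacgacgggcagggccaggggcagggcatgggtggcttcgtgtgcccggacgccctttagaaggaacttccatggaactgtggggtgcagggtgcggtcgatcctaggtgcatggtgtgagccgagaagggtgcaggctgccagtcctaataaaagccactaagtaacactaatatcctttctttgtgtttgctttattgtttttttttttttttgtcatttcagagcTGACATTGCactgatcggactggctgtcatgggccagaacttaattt

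Me1 has a further listed start downstream, whose promoter held no match. At its upstream start the match ran from 6 bases before the start of transcription to 2 bases after it, and its letters TGACTCAGC also hold TGANTCA, the site of AP-1. In G6pdx the match lay on the opposite strand, from 57 to 49 bases before the start. The promoter at the upstream start of Pgd held no match. The match at the downstream start began 3 bases after that start, so it lies inside the gene and not upstream of the start. Matches were found in 3 of the 14 promoters, the downstream one of Pgd included, against 12.4% of all 32851 promoters of the same length. The core of the amino acid response element, TGATGNAA, was in 0 of the 14 promoters and in 3.97% of all promoters. The sterol regulatory element TCACNCCAC was in 0 of the 14 and in 1.24% of all. The E-box CACGTG was found for 1 gene, Nadk, at the second of its listed starts, and in 7.15% of all promoters. The GC box GGGCGG was in 11 of the 14 promoters, with all 10 genes holding it in at least 1 promoter, and in 35.7% of all promoters. CCAAT was in 6 of the 14 and in 37.4% of all. Both strands were searched for each motif. A match is a run of letters and not a measured binding site.

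With scaling to library totals, 4 of the 10 genes had higher levels with AS by more than counting error (Pgd, Rpia, Me1 and G6pdx). Beyond that error 2 had lower levels (Taldo1 and Idh1), and 4 had intervals that included no difference (Pgls, Nadk, Tkt and Idh2). The direction of the first 6 held in all 7 alternative scalings and settings, but most of these could not turn it. Adding 0 or 1 RPKM to both values cannot turn a sign, and scaling to totals nearly repeats the main values. The other scalings lower every value alike by 0.07 or 0.08, which is less than the size of each of these 6 differences. Removal of trends with GC content, exon length and expression moves genes by different amounts. With scaling to library totals, counting intervals lay above 0 for 37.6% and below 0 for 19.8% of all genes in the table. Differences beyond counting error were thus common in these libraries. TMM scaling lowers every log2 fold change by 0.07, and the upper bounds of Tkt (0.04) and Idh2 (0.02) are smaller than this. Their intervals would then lie below 0, so these calls depend on the scaling. On the log2 scale 0 of the 10 genes passed a fold change of 1 upward or downward, against 0.662% of all genes above 1 and 0.31% below -1. At the other threshold that the study's methods give, a 1.5-fold difference, 1 of the 10 genes was higher and 0 were lower, against 3.56% of all genes higher and 2.01% lower. The median log2 fold change of the 10 genes was 0.04, beside 0.07 over all genes, and it turned to -0.02 with TMM scaling. Their fold changes ranged from -0.20 to 0.60, and 4 of the 10 lay between percentiles 25 and 75 of all genes, which were -0.10 and 0.23. All log2 fold changes are those of AS over vehicle with 0.1 RPKM added to both values. Their intervals come from the reads without that addition, so at low RPKM the printed value is not at the centre of its interval.

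**Figure D1:**
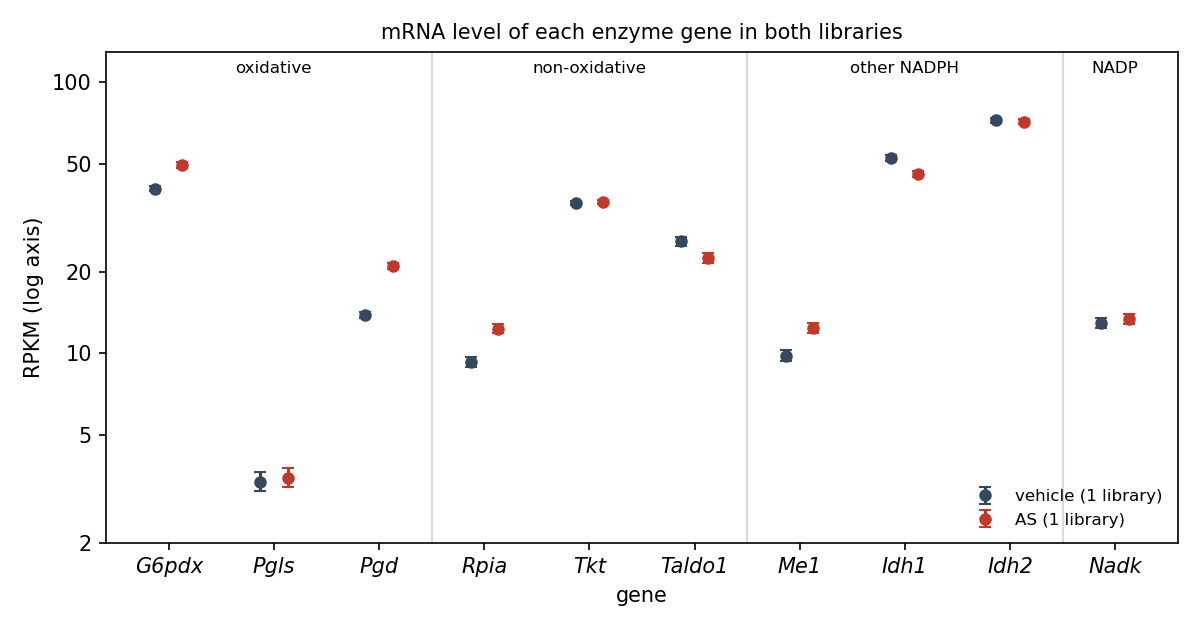
RPKM of each gene (log axis) in the AS library and the vehicle library, ordered by role. Points are single libraries and bars are 95% Poisson intervals of the reads, which do not overlap between the libraries for G6pdx, Pgd, Rpia, Me1, Taldo1 and Idh1.

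Of the 3 genes of the oxidative steps, G6pdx and Pgd had higher levels with AS, and the interval of Pgls included no difference. Levels summed over genes are given as CPM, the reads per 1000000 reads of the library, so genes with longer exons weigh more than in a sum of RPKM. Summed over G6pdx, Pgls and Pgd, the level was 302 CPM in AS-treated and 227 CPM in control cells, a log2 ratio of 0.41 (95% interval 0.38 to 0.45). As a sum of RPKM it was 74.2 in AS-treated and 57.8 in control cells, a log2 ratio of 0.36. TMM scaling lowers either ratio by 0.07, so the size depends on the unit and the scaling. G6pdx encodes glucose phosphate dehydrogenase, the first and rate-limiting enzyme of the pathway, and spans bases 74409483 to 74429194 of chromosome X (minus strand, GRCm38). It was at 49.6 RPKM in AS-treated cells (6866 reads) and at 40.6 RPKM in control cells (6349 reads). The log2 fold change was 0.29 (0.24 to 0.34), a 1.22-fold higher level with AS. Exons of Ikbkg on the opposite strand overlap 418 bases of the exons of G6pdx (13.6%), and whether the counting used strand is not given in the sources used here. Ikbkg, which encodes the regulatory subunit of the IκB kinase, was at 12.9 RPKM in AS-treated and 10.1 RPKM in control cells, a log2 fold change of 0.36 (0.30 to 0.42). The part of reads from Ikbkg in the value of G6pdx was not tested.

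Pgls encodes phosphogluconolactonase, which opens the lactone made by the first step. It spans bases 71592176 to 71601092 of chromosome 8 (plus strand). It was the lowest of the 10 genes, at 3.47 RPKM in AS-treated cells (588 reads) and 3.36 RPKM in control cells (644 reads). Its log2 fold change of 0.05 has an interval from -0.12 to 0.21, the widest of the 10, and the sign turned in 3 of 7 other scalings and settings. Exons of Fam129c on the same strand overlap 776 bases of its exons (20.6%), and Fam129c is not among the genes of the table.

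Pgd encodes phosphogluconate dehydrogenase, the second NADPH-yielding step, and spans bases 149149991 to 149166771 of chromosome 4 (minus strand). It was at 21.1 RPKM in AS-treated cells (6095 reads) and at 13.8 RPKM in control cells (4535 reads). The log2 fold change of 0.60 (0.55 to 0.66), a 1.52-fold higher level with AS, was the largest of the 10 genes and number 469 of the 14197 genes ordered from the highest fold change. It was the 1 gene of the 10 that was at least 1.5-fold higher, and the lower bound of its interval lies below that threshold. With TMM scaling of the reads the log2 fold change was 0.54, which is below it. The 3 genes of the oxidative steps did not differ alike. The fold change of Pgd exceeded that of G6pdx by 0.31 on the log2 scale (0.24 to 0.39), and the RPKM of Pgd was 0.424 times that of G6pdx with AS and 0.341 times with the vehicle. The fold change of Pgd exceeded that of Pgls by 0.56 (0.39 to 0.73).

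The non-oxidative genes went apart from each other. Summed over Rpia, Tkt and Taldo1, the level was 381 CPM in AS-treated and 371 CPM in control cells, a log2 ratio of 0.04 (0.01 to 0.07). TMM scaling lowers this ratio, like every other, by 0.07. As a sum of RPKM the level was 70.9 in AS-treated and 71.2 in control cells, a log2 ratio of -0.005, so the sign depends on the unit. Rpia encodes ribose phosphate isomerase, which turns ribulose phosphate into the ribose phosphate used for nucleotides. It spans bases 70765720 to 70792232 of chromosome 6 (minus strand). It was at 12.3 RPKM in AS-treated cells (2965 reads) and at 9.28 RPKM in control cells (2528 reads), a log2 fold change of 0.40 (0.33 to 0.49), second only to that of Pgd among the 10 genes.

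Tkt encodes transketolase, which moves 2-carbon units between sugar phosphates, and spans bases 30548359 to 30574720 of chromosome 14 (plus strand). With 11940 and 13462 reads it had the most reads of the 10 genes. It was at 36.1 RPKM in AS-treated and 36.02 RPKM in control cells, a log2 fold change of 0.0053 with an interval from -0.03 to 0.04, and this turned to -0.06 with TMM scaling. Its interval was the narrowest of the 10. Taldo1 encodes transaldolase, which moves 3-carbon units, and spans bases 141392199 to 141402968 of chromosome 7 (plus strand). It was at 22.5 RPKM in AS-treated cells (2192 reads) and at 25.9 RPKM in control cells (2856 reads). The log2 fold change of -0.20 (-0.28 to -0.12) was the lowest of the 10. The fold change of Rpia exceeded that of Taldo1 by 0.61 on the log2 scale (0.50 to 0.72), and that of Tkt exceeded that of Taldo1 by 0.21 (0.12 to 0.30).

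**Figure D2:**
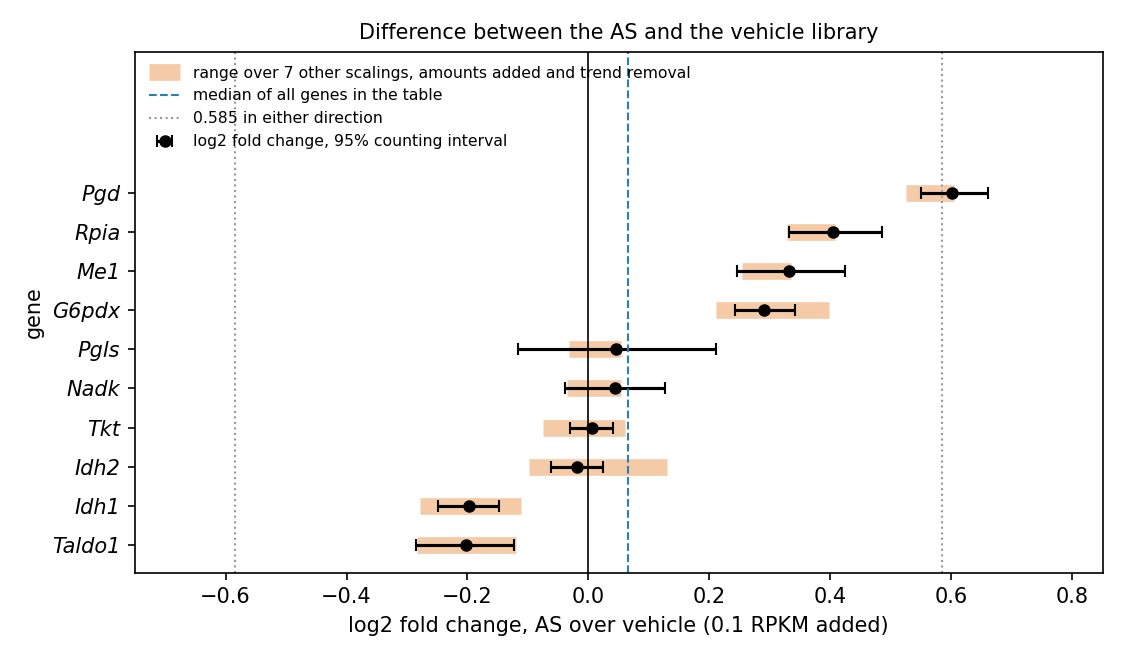
Log2 fold change of AS over vehicle for each gene, ordered by its value. Black bars are 95% Clopper-Pearson intervals of the reads, orange bands the range over 7 alternatives, and lines mark 0, the median of all genes (0.07) and a 1.5-fold difference. Pgd, Rpia, Me1 and G6pdx lie to the right of the median of all genes, and Taldo1 and Idh1 lie to the left of 0.

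Among the other sources of NADPH, the cytosolic malic enzyme was higher with AS and the cytosolic isocitrate dehydrogenase lower. Me1 encodes malic enzyme, which turns malate into pyruvate in the cytosol, and spans bases 86581371 to 86695953 of chromosome 9 (minus strand). It was at 12.4 RPKM in AS-treated cells (2135 reads) and at 9.80 RPKM in control cells (1916 reads). The log2 fold change was 0.33 (0.24 to 0.42). Its mitochondrial relative Me2, which uses mainly NAD, went the other way. Me2 was at 6.70 RPKM in AS-treated and 9.58 RPKM in control cells, a log2 fold change of -0.51 (-0.59 to -0.44). Me3, the mitochondrial NADP-dependent form, was near the lower end of the table with 0.172 and 0.136 RPKM from 113 and 101 reads, and its interval ran from -0.06 to 0.74.

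Idh1, the cytosolic and peroxisomal NADP-dependent isocitrate dehydrogenase, spans bases 65158616 to 65186500 of chromosome 1 (minus strand). It was at 45.9 RPKM in AS-treated cells (5706 reads) and at 52.6 RPKM in control cells (7408 reads), a log2 fold change of -0.20 (-0.25 to -0.15). Idh2, the mitochondrial NADP-dependent form, spans bases 80094846 to 80115392 of chromosome 7 (minus strand). It had the highest level of the 10 genes, at 71.6 RPKM in AS-treated cells (8319 reads) and 72.5 RPKM in control cells (9537 reads). Its log2 fold change was -0.02 (-0.06 to 0.02), and it turned to 0.13 when trends with GC content, exon length and expression were removed. The fold change of Idh1 was below that of Idh2 by a log2 difference of -0.18 (-0.24 to -0.11), and that of Me1 exceeded that of Idh1 by 0.53 (0.43 to 0.63). The genes of the NAD-dependent isocitrate dehydrogenase of the citric acid cycle had log2 fold changes of -0.15 (Idh3a), 0.05 (Idh3b) and 0.02 (Idh3g). Summed over Me1, Idh1 and Idh2, the level was 360 CPM in AS-treated and 371 CPM in control cells, a log2 ratio of -0.04 (-0.07 to -0.01).

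Nadk, the cytosolic NAD kinase, spans bases 155562378 to 155591001 of chromosome 4 (plus strand). It was at 13.4 RPKM in AS-treated cells (2247 reads) and at 12.9 RPKM in control cells (2466 reads). The log2 fold change was 0.04 (-0.04 to 0.13), and its sign turned in 3 of 7 alternatives. The mitochondrial kinase gene Nadk2 was at 7.88 and 8.14 RPKM, a log2 fold change of -0.05 (-0.14 to 0.04). With scaling to library totals neither kinase gene differed by more than counting error. TMM scaling lowers every value by 0.07, which exceeds the upper bound of Nadk2 but not that of Nadk.

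The order of the levels in the vehicle library, from the highest RPKM, was Idh2, Idh1, G6pdx, Tkt, Taldo1, Pgd, Nadk, Me1, Rpia and Pgls. The counting intervals of Pgd and Nadk and those of Me1 and Rpia overlapped, and those of the other neighbours did not. In the AS library G6pdx stood above Idh1, by 1.08 times, and the other 8 places were held by the genes that held them with the vehicle. There the intervals of Taldo1 and Pgd overlapped, as did those of Nadk, Me1 and Rpia in turn. The spread between dishes, which would decide whether such neighbours differ, was not measured. Mean RPKM over both libraries placed Idh2 at percentile 95.01 of all genes and Pgls at percentile 39.96.

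This order rests on the gene length behind the values. The implied length of each of the 10 genes was equal to the summed exons of all its transcripts in GENCODE M21, retained introns included. For Pgls that sum of 3770 bases is 4.22 times the principal transcript of 893 bases, for Rpia 2.93 times, for Pgd 2.91 times and for Tkt 2.28 times, but for G6pdx 1.16 times and for Me1 1.17 times. Per kilobase of the principal transcript, a length chosen after the values were seen, Tkt moved from place 4 to place 2 in the vehicle library, with a level of 82.2 in place of 36.02 reads per kilobase per 1000000 reads. Pgd stood at 40.2 and G6pdx at 47.1 with the vehicle, and with AS Pgd stood at 61.2 and G6pdx at 57.6, so by this measure their order between the libraries was turned. All reads of a gene were divided by this length, with any from other exons or retained introns. The values are therefore upper bounds for the principal transcript. The reads outside it were not measured, so the turned order of Pgd and G6pdx may not hold for the principal transcripts. Me1 became the lowest of the 10 genes with 11.5 with the vehicle, and Pgls stood above it with 14.2. Fold changes between the libraries do not depend on the length apart from the 0.1 RPKM added.

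**Figure D3:**
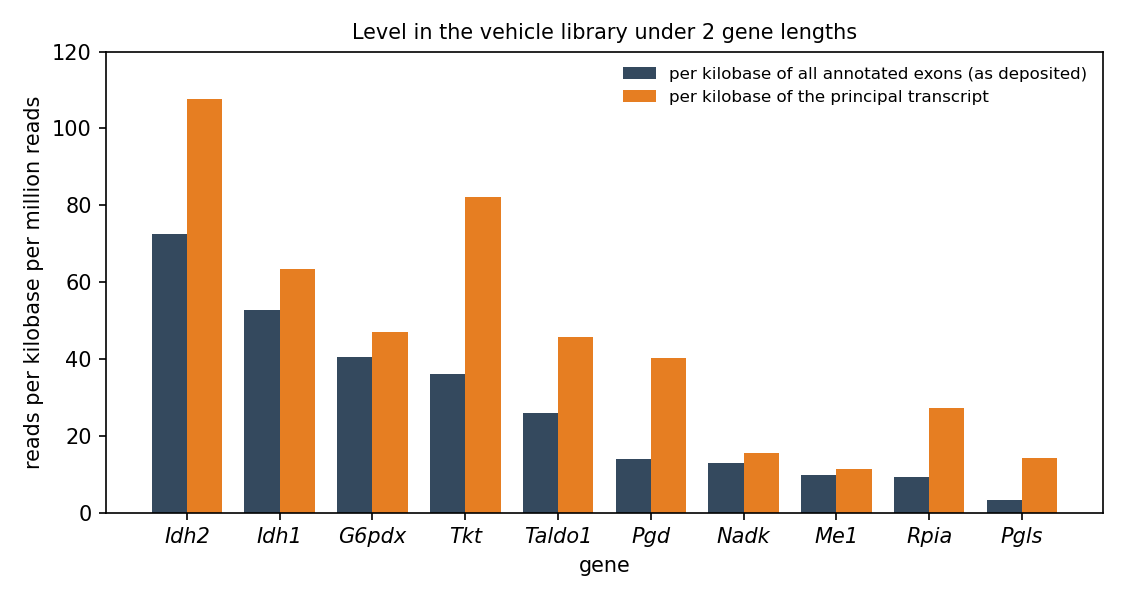
Level of each gene in the vehicle library as reads per kilobase per 1000000 reads, with the deposited length (all annotated exons) and with the principal transcript. Bars are single values without replicates, and all reads of a gene are counted under both lengths. Tkt goes from 36.02 to 82.2, while Me1 and Nadk move little.

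Other genes of the pathway were taken from lists written by pathway role. Of 16 other pentose phosphate genes 13 were in the table, and G6pd2, Tktl1 and Tktl2 were not among them. Their median log2 fold change was 0.06, and 8 were higher and 5 lower with AS, beside 60.9% of all genes higher. Beyond 1 were 0 of them, against 0.662% of all genes above 1 and 0.31% below -1. Among all genes 3.56% were at least 1.5-fold higher and 2.01% lower. Of the 13 pentose phosphate genes Shpk, the sedoheptulose kinase that feeds the non-oxidative steps, alone reached a 1.5-fold difference. It was at 1.25 RPKM in AS-treated and 0.580 RPKM in control cells (167 and 88 reads). Its log2 fold change of 0.98 was above 1 when no RPKM was added. H6pd, the glucose dehydrogenase of the endoplasmic reticulum, was at 3.84 and 3.04 RPKM, and its log2 fold change was 0.33 (0.20 to 0.48). Rpe, the epimerase that works beside Rpia, was at 6.92 and 6.74 RPKM, and its log2 fold change was 0.04 (-0.09 to 0.16).

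Of 13 other enzymes listed for making NADPH, NADP or NADH from related substrates, 1 was beyond 1 and 2 were at least 1.5-fold higher. Among all genes 0.662% were above 1 and 3.56% at least 1.5-fold higher. The median of the list was 0.02. Both higher genes belong to the mitochondrial folate cycle. Of its other listed genes, Mthfd2l had 0.11 (-0.01 to 0.24) and Mthfd1l -0.15 (-0.21 to -0.10). Mthfd1l is a formate ligase that makes none of these cofactors. Mthfd2 was at 31.5 RPKM in AS-treated and 11.7 RPKM in control cells, a log2 fold change of 1.42 (1.36 to 1.5). Aldh1l2, which oxidizes formyl folate with NADP, had 0.528 and 0.215 RPKM, from 178 and 82 reads. Its log2 fold change was 0.996, and the interval of its reads, without the 0.1 RPKM added, ran from 0.91 to 1.69. Mthfd2 and Aldh1l2 both exceeded the fold change of every one of the 10 genes.

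Among 23 enzymes listed for the use of NADPH, 2 were higher beyond 1 and 0 lower, against 0.662% and 0.31% of all genes. Their median was -0.11, which turned to 0.021 when trends with GC content, exon length and expression were removed. The list includes Cyb5r3, which uses mainly NADH, and Rrm1, which draws on NADPH only through other proteins. The median is therefore not that of NADPH users alone. At a 1.5-fold difference 4 were higher and 2 lower, against 3.56% and 2.01% of all genes. The higher genes were Nqo1 (1.77), a quinone reductase, Aldh18a1 (1.05) and Pycr1 (0.98), which make proline, and Txnrd1 (0.88), the cytosolic thioredoxin reductase. Aldh18a1 was not beyond 1 with TMM scaling, which left 1 gene of the list above 1, while 3 were above 1 when no RPKM was added.

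The 24 NRF2 targets outside the 10 genes had a median of 0.59, beside 0.04 for the 10 genes and 0.07 for all genes. Not all of the 10 genes are known NRF2 targets. Those named above as such had 0.60 (Pgd), 0.33 (Me1), 0.29 (G6pdx), 0.0053 (Tkt) and -0.20 (Taldo1). Of the 24 targets, 7 were beyond 1, against 0.662% of all genes. At least 1.5-fold higher were 12 of them, and 0 were lower by as much, against 3.56% of all genes higher and 2.01% lower. At any size 21 were higher and 3 lower, down to -0.51, beside 60.9% of all genes higher. The highest were Slc7a11 (3.47), the cystine transporter, Aldh3a1 (2.36), an aldehyde dehydrogenase, Gsta1 (1.96), a glutathione transferase whose reads may be shared with near-identical copies, and Nqo1 (1.77). NRF2 itself (Nfe2l2) was at 23.5 RPKM in AS-treated and 19.9 RPKM in control cells, a log2 fold change of 0.24. Of the 7 genes of NRF2 and its partners 0 reached a 1.5-fold difference. The list of targets was chosen with earlier results of these data known. The activity of NRF2, or of other regulators of these genes, was not tested.

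Of 10 lipogenic genes listed 9 were in the table, without Mlxipl. The 9 genes include fatty acid synthase (Fasn), which draws on NADPH, the transcription factor Srebf1 and the citrate carrier Slc25a1. Levels were lower in the AS library for 9 of 9 genes, while 60.9% of all genes were higher. The median was -0.37, and values ran from -0.57 for Slc25a1 to -0.08, so 0 reached a 1.5-fold difference. The 13 genes listed for upper glycolysis had a median of -0.27, with Tpi1 (-0.72) and Pfkl (-0.59) at least 1.5-fold lower and Pfkfb3 (0.61) higher. The list also holds the transporter Slc2a1, regulators such as Pfkfb3, and Gapdh, which acts in lower glycolysis. Among all genes 2.01% were at least 1.5-fold lower and 3.56% higher. The 15 genes listed for the synthesis of nucleotides from ribose phosphate had a median of -0.07 and 0 at a 1.5-fold difference in either direction. They include Cad and Dhodh, which act before ribose phosphate is added. Slc25a1 was named after its value was seen.

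**Figure D4:**
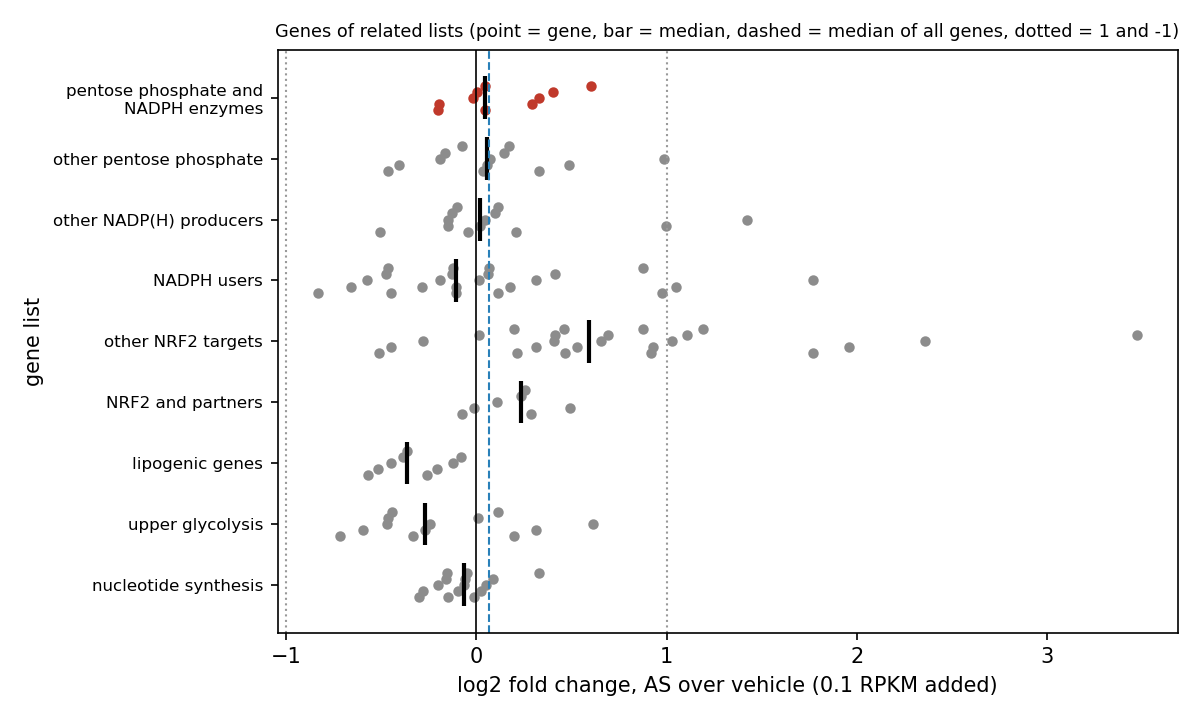
Log2 fold change of AS over vehicle for each gene of the 10 enzymes (red) and of 8 related lists (grey). Black bars are medians, the dashed line is the median of all genes (0.07) and dotted lines mark 1 and -1. The 10 enzymes lie between -0.20 and 0.60, and the other NRF2 targets reach 3.47.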

How the data were processed

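RNA was extracted from 4T1 cells with TRIzol and made into 1 stranded mRNA library per condition. Per the labels, the submitters' processing notes name fastp 0.23.4, STAR 2.5.3a, featureCounts and the build GRCh38, a human build, whereas the genes carry mouse symbols. The authors deposited the RPKM of each library, whose unit was found from the values, and a log2 mean CPM over both libraries. The authors' fold changes, p-values and FDR were not used. Whole reads (tolerance 0.001) were recovered for 14197 of 14197 genes, with library sizes of 44909683 and 50820728. For 94.2% of 13502 genes the implied length was that of GENCODE M21 (GRCm38), from which coordinates were taken. The recovery was tested on simulated data.

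Log2 fold changes were computed with 0.1 RPKM added, and genes beyond 1 were called, without a test. Fold changes carry 95% Clopper-Pearson intervals from their reads, without the RPKM added. Levels carry Poisson intervals, and differences between genes normal intervals of the log odds ratio. Reads without molecular identifiers are not independent molecules, so all of them cover counting error only. With 11940 reads the interval of a log2 fold change was 0.07 wide, and with 588 reads 0.33 wide. The 10 genes and the lists were chosen with earlier results of these data known. Named were all 10 genes, their direct relatives, and per list up to 4 genes in each direction at a 1.5-fold difference or beyond. Cyb5r3, Rrm1, Mthfd1l, Gapdh, Slc2a1, Cad and Dhodh were named for the step they carry out, Mthfd2l as a mitochondrial folate gene, and Mlxipl for its absence. Values of single genes that were lower among the enzymes that use NADPH are not reported here. Alternatives were 0 or 1 RPKM added, scaling of the reads (0.5 added) to totals, upper quartiles, TMM or median ratios, removal of trends (20 bins, 3 rounds), a minimum mean of 1 RPKM and a threshold of 1.5-fold. Python 3.11.15, scipy 1.17.1 and pandas 2.3.3 were used.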

Additional observations from a re-analysis of the deposited data

How the results depend on the processing

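Of the 10 genes, 6 (Pgd, Rpia, Me1, G6pdx, Taldo1 and Idh1) had the same direction in all 7 alternative scalings, added amounts and trend removal, and 4 (Pgls, Nadk, Tkt and Idh2) changed sign in at least 1. The added amounts cannot turn a sign and scaling to totals nearly repeats the main values, so part of this agreement was fixed in advance. Against the totals, TMM lowered every log2 fold change by 0.07, median ratios by 0.07 and upper quartiles by 0.08, and the share of all genes higher with AS went from 60.9% to 50.05%, 50.02% and 48.06%. The median of the 10 genes, 0.04, turned to -0.02, -0.02 and -0.03 under these 3 scalings. Of 80 member values under 8 alternatives 21 lay outside the counting interval. A minimum mean of 1 RPKM, 1 of the 8, only drops genes and leaves these values as they were. The amounts added and scaling to totals moved none of them beyond it. All 21 arose with TMM, median ratios, upper quartiles or removal of trends. The number of members beyond 1 was 0 in each direction in every alternative, and at a 1.5-fold threshold it was 1 higher. At 1.5-fold the numbers higher were 1 for other pentose phosphate genes, 2 for other NADPH producers, 4 for NADPH users, 12 for NRF2 targets and 1 for upper glycolysis. The numbers lower were 2 for NADPH users and 2 for upper glycolysis. Among all genes 3.56% were higher and 2.01% lower by as much. With 0 RPKM added and under each of the 4 scalings of the reads, 1 other pentose phosphate gene and 2 other NADPH producers were above 1, in place of 0 and 1. With TMM, median ratios and upper quartiles 1 NADPH user was above 1 in place of 2, and with 0 RPKM added or scaling to totals 3 were. With TMM, median ratios and upper quartiles in that order, the medians were -0.17, -0.18 and -0.19 for NADPH users, 0.53, 0.53 and 0.52 for NRF2 targets, and -0.44, -0.44 and -0.45 for lipogenic genes. Upper-quartile scaling gave 0.16 for NRF2 and its partners and -0.15 for nucleotide synthesis. Removal of trends turned the median of the NADPH users from -0.11 to 0.021, and the cause was not tested. No paired analysis was possible because there is 1 library per condition, and for the same reason no replicate could be left out. Depth limits Pgls most.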
